A study of Mus musculus with 12 samples.

Results

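The cytosolic heat shock chaperone genes described here were Hspa8, Hspa1a and Hspa1b of the HSP70 family, Hsp90aa1 and Hsp90ab1 of the HSP90 family, and Dnajb1, an HSP40 partner of HSP70. They were looked up in the deposited expression table by gene symbol, and each symbol was set against the Ensembl identifier of its entry and the gene length implied by its values. Of the 38924 entries, 6 were used, 5 under their own symbol and that of Hsp90ab1 by its identifier and length. RNA sequencing was done on haematopoietic stem and progenitor cells of the mouse, from which all blood cells form. In the brain-recovered group (replicates 4, 5, 6, 10, 11 and 12) the cells had been injected into a vein of mice 24 h after cerebral ischaemia and reperfusion, in which blood flow is cut off and then restored as a model of stroke, and were isolated from the brain 24 h after the injection. In the naive group (replicates 1, 2, 3, 7, 8 and 9) they were never injected. In both groups the strain was C57BL/6. The donors were males of 4 to 5 weeks, and their marrow was depleted of cells carrying CD45R, CD11b, CD3e, Ly-6G or TER119, which mark maturing blood lineages. The label is therefore a depletion and not a sort for a stem cell marker, and the labels name no marker by which injected cells were told from cells of the host brain. They do not say whether the 6 libraries of a group came from separate animals, so the p-values measure the spread between these libraries, which may be technical.

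HSP70 proteins bind exposed hydrophobic stretches of unfolded or newly made proteins and release them in a cycle driven by ATP. J-domain proteins of the HSP40 class, such as Dnajb1, bring them clients and speed up ATP hydrolysis, and nucleotide exchange factors restart the cycle. HSP90 takes over later, with its co-chaperones, and holds kinases, steroid receptors and other signalling proteins in a form that can be activated. Hspa8 and Hsp90ab1 are transcribed in nearly all cells, whereas Hspa1a, Hspa1b, Dnajb1 and, in part, Hsp90aa1 are induced by heat and other stress through heat shock factor 1, which binds heat shock elements made of inverted GAA repeats.

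Levels are the deposited values, treated as RPKM, that is, reads per length of gene and per a library factor of the authors. The reads behind them, recovered from the steps between values, numbered 1033842 to 13340163 in the brain-recovered libraries and 639091 to 2294320 in the naive libraries. The library factor did not fall in step with these reads, as it would in an ordinary RPKM. For Hspa8, 1395 reads stood for 672 RPKM in brain-recovered replicate 6 (8856272 reads in all). In naive replicate 9 (2075587 reads), 30 reads stood for 4.76 RPKM. In naive replicate 7 (2294320 reads), 19 reads stood for 6.11 RPKM, so the factor also differed between libraries of similar depth. The values thus keep differences in depth and in this factor, and results with libraries scaled to equal totals are given below. Entries above 0 numbered 4380 to 22727 in brain-recovered and 5067 to 23184 in naive libraries. In 4 libraries (brain-recovered 12 and naive 1, 2 and 3) fewer than 10000 entries were above 0. These are called sparse below, and results are also given without them. Differences are brain-recovered minus naive in mean log2(RPKM + 1), which understates changes of low genes, and were tested with limma over the 17689 entries that reached 1 RPKM in 6 or more libraries (n = 6 per group, Benjamini-Hochberg adjustment, threshold 0.05). The median difference of all entries tested was 0.64.

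A symbol mismatch had to be settled before Hsp90ab1 could be read. The entry whose symbol cell reads Hsp90ab1 carries the identifier of Med25, ENSMUSG00000002968, and its values imply a length of 2297 bases, which is neither the 2999 exon bases of Hsp90ab1 nor the 7629 of Med25. The entry just before it carries the identifier of Hsp90ab1, ENSMUSG00000023944, under the symbol Gm10642, and its values imply exactly 2999 bases. That entry was used as Hsp90ab1. The entry with the Hsp90ab1 symbol was set aside; it ran from 0 to 25.0 RPKM in brain-recovered and from 0 to 8.55 in naive libraries, with a difference of 1.25 ± 1.22 (SE, limma adjusted p = 0.972). The lengths of Hspa1b (2803 bases) and Hsp90aa1 (3931) also equalled their exon lengths. Those of Hspa8 (4156 against 4301), Hspa1a (2956 against 2967) and Dnajb1 (2263 against 3204) were shorter than the exon length in the annotation used here, so these 3 labels rest on the identifier and on the absence of a better match.

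Of the 6 genes, 2 were higher in brain-recovered cells, Hsp90ab1 and Hspa8, where 0.367% of all entries tested passed in that direction. None was lower, and limma called none of the 17689 entries lower, with 31 (0.175%) lower at an unadjusted p under 0.05 and 41 (0.232%) in the exact permutation test. At an unadjusted p under 0.05, 5 of the 6 genes were higher by limma, against 6.08% of all entries. The same number were higher in the two-sided exact permutation test of the group means, against 4.13%. In Hspa8, Hspa1a, Hspa1b and Hsp90ab1, at least 5 brain-recovered libraries were above every naive library, which held for 1.75% of all entries tested. The median difference was 4.70 over the 6 genes and 0.64 over all entries tested. These calls rest on a spread pooled over entries: with an ordinary linear model on each entry's own spread, the adjusted p was 0.968 for both genes and no entry passed, with 792 higher and 44 lower at an unadjusted p under 0.05. In the exact permutation test no entry passed after adjustment either (adjusted p = 0.973 for each of the 6). All 6 genes passed the filter on low values. They reached 1 RPKM in 4 to 6 brain-recovered libraries, against 1 naive library for Hspa1a and Hspa1b, 2 for Hspa8 and Dnajb1, 3 for Hsp90aa1 and 5 for Hsp90ab1. Most thus passed mainly through the brain-recovered libraries, and the counts above are descriptions. In bulk RNA, fewer cells of a type and less RNA per cell cannot be told apart.

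**Figure D1:**
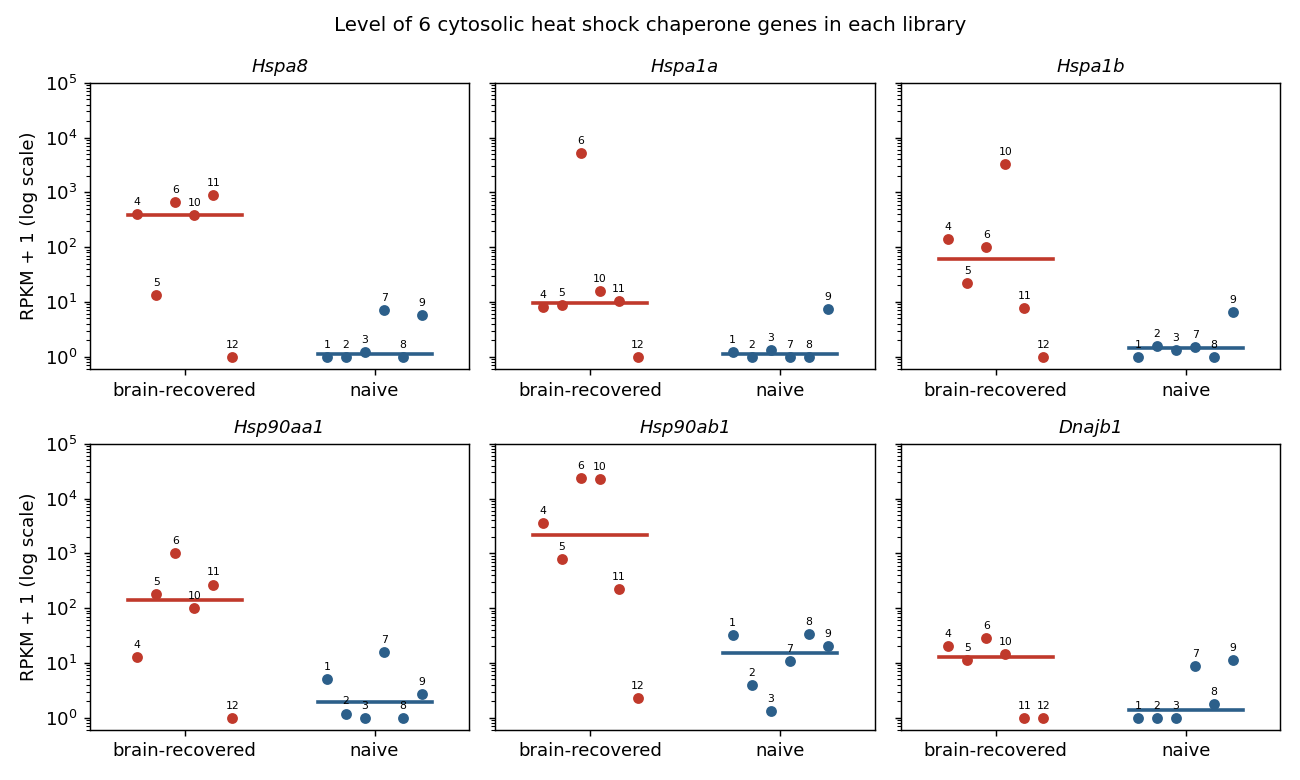
Level of each gene in each library, as RPKM + 1 on a log axis, with brain-recovered libraries on the left and naive libraries on the right of each panel. Numbers are replicates and bars are group medians. Brain-recovered replicate 12 lies at or near the bottom of every panel, and the other brain-recovered libraries of Hspa8 and Hsp90ab1 lie above every naive library.

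Hspa8 encodes the constitutive heat shock cognate HSC70, which folds new proteins, uncoats clathrin vesicles and delivers clients to lysosomes (ENSMUSG00000015656, chromosome 9, 40800984 to 40810087, plus strand, GRCm38). Its level was 404, 12.1, 672, 378, 896 and 0 RPKM in brain-recovered replicates 4, 5, 6, 10, 11 and 12, against 0, 0, 0.237, 6.11, 0 and 4.76 RPKM in naive replicates 1, 2, 3, 7, 8 and 9. The medians were 391 RPKM in brain-recovered and 0.119 RPKM in naive libraries. In 5 of 6 brain-recovered libraries the level was above that of every naive library, and 4 of these were far above. The 2 groups overlapped only through replicate 12, where the gene was listed at 0. The difference was 5.75 ± 1.33 (SE, limma adjusted p = 0.00835; exact permutation p = 0.0173), the 41st largest rise of the 17689 entries.

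The reads behind Hspa8 numbered 0 to 3588 with a median of 1293 in brain-recovered libraries, against 0 to 30 in naive libraries. Since a gene that nearly every cell uses was listed at 0 in 3 of 6 naive libraries, each library's value is given in place of a mean. A listing at 0 allows up to 3 reads. For the listings of the 6 genes at 0, that limit came to 0.571 to 1.38 RPKM in the brain-recovered and 0.515 to 1.91 RPKM in the naive libraries, and it covers counting error only. The call was lost without brain-recovered replicate 11, at a difference of 5.12 (limma adjusted p = 0.0788), or naive replicate 8, at 5.56 (limma adjusted p = 0.0669).

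Hspa1a and Hspa1b are the stress-inducible HSP70 genes, which stand next to each other on chromosome 17 and encode nearly the same protein. Their longest reading frames, read from the GENCODE M21 transcripts, were identical at 99.4% of aligned positions, against 74.1% between Hspa8 and Hspa1b. Of the 50-base windows of the Hspa1b transcript, 62.3% also occurred in that of Hspa1a. How the authors assigned reads that fit both is not given in the sources used here, so the level of either copy is uncertain and their sum is also given. The 250 bases before each annotated start are shown, 5′ to 3′, because the copies are nearly identical there as well (RefSeq, GRCm38.p6, minus strand, Hspa1a at chr17:34972157-34972406 and Hspa1b at chr17:34959239-34959488). The capitals mark GAANNTTC, a pair of inverted heat shock element units.
Hspa1a: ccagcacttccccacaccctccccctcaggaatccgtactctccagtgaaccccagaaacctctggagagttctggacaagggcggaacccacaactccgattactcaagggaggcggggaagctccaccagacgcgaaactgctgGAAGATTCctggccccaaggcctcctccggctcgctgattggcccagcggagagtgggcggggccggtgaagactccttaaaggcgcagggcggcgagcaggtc
Hspa1b: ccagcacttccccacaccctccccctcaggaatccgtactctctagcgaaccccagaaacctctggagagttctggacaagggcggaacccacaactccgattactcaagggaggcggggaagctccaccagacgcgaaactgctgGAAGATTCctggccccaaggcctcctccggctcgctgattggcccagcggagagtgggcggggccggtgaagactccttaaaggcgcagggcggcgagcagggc

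Counted from 1 at the 5′ end and with the Hspa1a base first, these windows differed by C44T, T47C and T249G. The motif GAANNTTC began at position 147 of both, 104 bases before the start. It reads the same on either strand, and so does TTCNNGAA, its other phase, which was in neither window. Of 32851 RefSeq promoter windows of 300 bases (250 before and 50 after the start), 7.86% contained GAANNTTC and 8.52% held TTCNNGAA. Neither motif was found in the 2 such windows of Dnajb1. The match describes the letters of the windows and was set against no binding data. Promoter windows of Hspa8, Hsp90aa1 and Hsp90ab1 were not used here.

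Hspa1a (ENSMUSG00000091971, chromosome 17, 34969190 to 34972156, minus strand) was at 6.97, 7.92, 5168, 14.8, 9.48 and 0 RPKM in brain-recovered replicates 4, 5, 6, 10, 11 and 12, against 0.241, 0, 0.333, 0, 0 and 6.47 RPKM in naive replicates 1, 2, 3, 7, 8 and 9. Replicate 6 stood alone at the top, and brain-recovered replicates 4, 5, 10 and 11 were far below it; replicates 4 and 5 lay just above the highest naive library, replicate 9, and replicates 11 and 10 further above it. The medians were 8.70 RPKM in brain-recovered and 0.121 RPKM in naive libraries, with a difference of 3.70 ± 1.23 (SE, limma adjusted p = 0.261; exact permutation p = 0.0238).

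Hspa1b (ENSMUSG00000090877, chromosome 17, 34956436 to 34959238, minus strand) was at 141, 20.9, 97.9, 3314, 6.66 and 0 RPKM in the brain-recovered replicates in the same order, against 0, 0.539, 0.352, 0.477, 0 and 5.41 RPKM in the naive ones. Here replicate 10 stood at the top, 5 brain-recovered libraries were above every naive library, and naive replicate 9 was again the highest of its group. The difference was 4.76 ± 1.28 and missed the threshold (SE, limma adjusted p = 0.0539; exact permutation p = 0.0216). It passed without brain-recovered replicate 12, with a difference of 5.85 (limma adjusted p = 0.0014).

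The 2 copies did not share their peaks. In brain-recovered replicate 6 Hspa1a had 7629 reads and Hspa1b 137, and in replicate 10 Hspa1a had 38 and Hspa1b 8078. The log2(RPKM + 1) of Hspa1a minus that of Hspa1b was 5.71 in replicate 6 and -7.71 in replicate 10. The sum of both was 148, 28.8, 5266, 3329, 16.1 and 0 RPKM in brain-recovered replicates 4, 5, 6, 10, 11 and 12, against 0 to 11.9 RPKM in the naive libraries. As with the single copies, 5 of 6 brain-recovered libraries were above every naive library in this sum, and it was 0 in replicate 12.

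**Figure D2:**
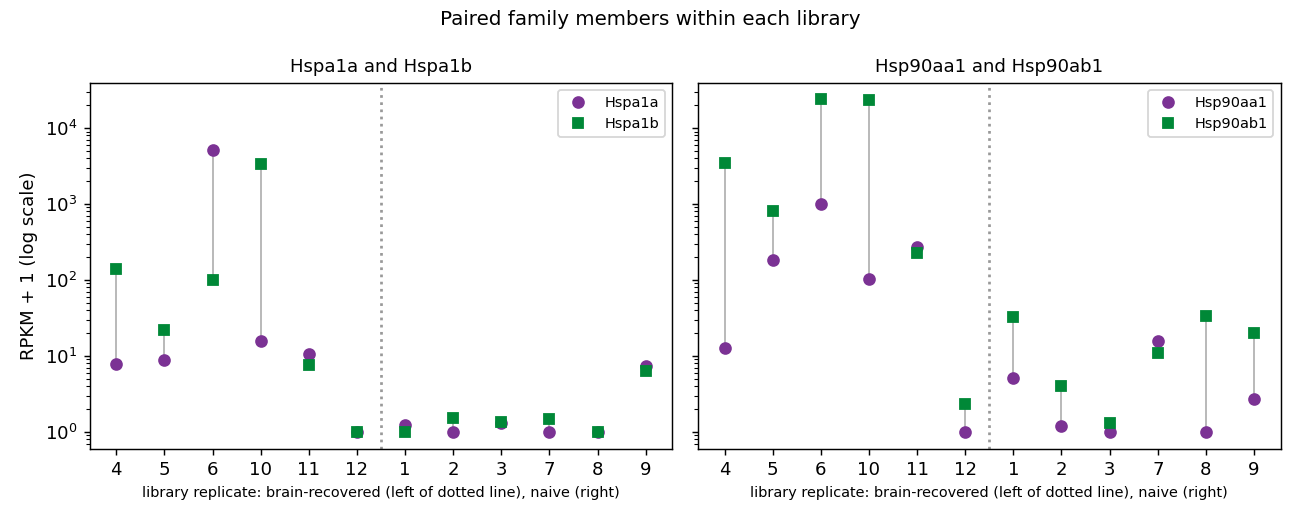
RPKM + 1 on a log axis of Hspa1a and Hspa1b (left panel) and of Hsp90aa1 and Hsp90ab1 (right panel) in each library, joined by a line within the library, with brain-recovered libraries left of the dotted line and naive libraries right of it. Hspa1a is at 5168 RPKM in brain-recovered replicate 6, where Hspa1b is at 97.9, and Hspa1b at 3314 RPKM in replicate 10, where Hspa1a is at 14.8.

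Hsp90ab1 encodes the constitutive HSP90 beta (ENSMUSG00000023944, chromosome 17, 45567775 to 45573271, minus strand) and had the highest levels of the 6 genes. It was at 3515, 801, 23759, 23191, 223 and 1.32 RPKM in brain-recovered replicates 4, 5, 6, 10, 11 and 12, against 31.9, 3.02, 0.329, 9.81, 32.8 and 19.1 RPKM in naive replicates 1, 2, 3, 7, 8 and 9. The brain-recovered libraries spread widely, with replicates 6 and 10 at the top and replicate 12 within the naive range, and the other 5 lay above every naive library. The median of 2158 RPKM in brain-recovered libraries was 149 times that of 14.5 RPKM in naive libraries. Its difference was 6.53 ± 1.47 (SE, limma adjusted p = 0.00559; exact permutation p = 0.0195), the 17th largest rise of all entries tested. The call was lost without naive replicate 9, at a difference of 6.72 (limma adjusted p = 0.0538).

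Hsp90ab1 was above 0 in all 12 libraries, with 5 to 60473 reads in brain-recovered and 1 to 134 in naive libraries, and it was the gene with the best counts on the naive side. It was the highest of the 6 genes in brain-recovered replicates 4, 5, 6, 10 and 12, whereas Hspa8 led in replicate 11. It made up 77.3% to 85.9% of their summed RPKM in replicates 4, 5, 6 and 10 and 15.9% in replicate 11.

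Hsp90aa1 encodes the inducible HSP90 alpha (ENSMUSG00000021270, chromosome 12, 110690605 to 110702728, minus strand), and its longest reading frame was identical to that of Hsp90ab1 at 75.6% of aligned positions. It was at 11.9, 180, 997, 101, 269 and 0 RPKM in brain-recovered replicates 4, 5, 6, 10, 11 and 12, against 4.17, 0.192, 0, 15.0, 0 and 1.68 RPKM in naive replicates 1, 2, 3, 7, 8 and 9. In 4 of 6 brain-recovered libraries it exceeded every naive library, and replicate 4 was below naive replicate 7. The difference of 4.64 ± 1.32 missed the threshold (SE, limma adjusted p = 0.104; exact permutation p = 0.0303). As for Hspa1b it passed without brain-recovered replicate 12, with a difference of 5.84 (limma adjusted p = 0.00177), where 226 of 17529 entries passed. Without each of the other libraries in turn it missed the threshold (limma adjusted p of 0.0884 to 0.474). Of the 50-base windows of its transcripts, 47.5% occurred in those of other genes, against 3.44% for Hsp90ab1 and 39.4% for Hspa8.

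Within a library the 2 HSP90 genes were not in a fixed ratio. Hsp90ab1 was 296 times Hsp90aa1 in brain-recovered replicate 4 and 230 times in replicate 10, but 23.8 times in replicate 6, 4.44 times in replicate 5 and 0.829 times in replicate 11. In the 4 naive libraries with both genes above 0 the ratio ran from 0.655 to 15.7.

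Dnajb1 encodes the J-domain protein that activates the ATPase of HSP70 (ENSMUSG00000005483, chromosome 8, 83608193 to 83612653, plus strand), and it was the only 1 of the 6 genes with an unadjusted p above 0.05. It was at 19.4, 10.3, 27.4, 13.7, 0 and 0 RPKM in brain-recovered replicates 4, 5, 6, 10, 11 and 12, against 0, 0, 0, 7.68, 0.789 and 10.5 RPKM in naive replicates 1, 2, 3, 7, 8 and 9. The groups overlapped in 3 of the brain-recovered libraries, and the highest count behind any value was 36 reads, in naive replicate 9. The difference was 1.51 ± 1.15 (SE, limma adjusted p = 0.954; exact permutation p = 0.199), and it did not pass the threshold.

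The order of the 6 genes by median level in brain-recovered libraries was Hsp90ab1 (2158 RPKM), Hspa8 (391), Hsp90aa1 (140), Hspa1b (59.4), Dnajb1 (12.03) and Hspa1a (8.70). In naive libraries it was Hsp90ab1 (14.5 RPKM), Hsp90aa1 (0.935), Hspa1b (0.414), Dnajb1 (0.395), Hspa1a (0.121) and Hspa8 (0.119). The ranges of neighbours in either order overlapped. Set against their own library, 2 to 4 of the 6 genes were above the 95th percentile of the values above 0 in brain-recovered replicates 4, 5, 6, 10 and 11, and none was in brain-recovered replicate 12 or in any naive library. The summed level of the 6 genes came to 0.0257% to 0.35% of all values in these 5 libraries and to 0.000166% in brain-recovered replicate 12, against 0.000414% to 0.00822% in naive libraries.

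The differences were as large or larger without the sparse libraries, other than that of Dnajb1. Leaving these out, 5 brain-recovered and 3 naive libraries remained. The differences were then 6.24 for Hspa8, 7.37 for Hsp90ab1, 5.49 for Hspa1b, 5.37 for Hsp90aa1, 4.20 for Hspa1a and 0.82 for Dnajb1, while the median of all entries was -0.06. None of the 6 passed in limma on these 8 libraries, with adjusted p of 0.404 for Hspa8 and 0.312 for Hsp90ab1, and only 2 of all entries did. The exact permutation test, whose smallest possible p was 0.0179 there, gave 0.0179 for Hspa8, 0.0357 for Hsp90ab1, Hspa1b and Hsp90aa1, 0.125 for Hspa1a and 0.571 for Dnajb1. With only brain-recovered replicate 12 left out and the sparse naive libraries kept, all 6 differences were larger than without all the sparse libraries. They were 7.08 for Hspa8, 8.27 for Hsp90ab1, 5.85 for Hspa1b, 5.84 for Hsp90aa1, 4.57 for Hspa1a and 2.07 for Dnajb1. The median of all entries was then 1.04.

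The replicate numbers form blocks, 1 to 6 and 7 to 12, with 3 libraries of each group, although no label calls them a batch. Replicates 1 to 6 (all naive ones sparse) gave differences of 7.15 for Hspa8, 5.92 for Hspa1a, 5.72 for Hspa1b, 6.18 for Hsp90aa1, 9.50 for Hsp90ab1 and 4.23 for Dnajb1. All but Hspa1a passed in limma. In that setting a large share of all entries passed too, with 6010 higher and 1 lower of 15890 tested, and the median of all entries was 2.42. Replicates 7 to 12 gave 4.34 for Hspa8, 1.49 for Hspa1a, 3.80 for Hspa1b, 3.11 for Hsp90aa1, 3.56 for Hsp90ab1 and -1.20 for Dnajb1. There none of the 6 and none of all entries passed, and the median of all entries was -1.09. The differences of the 6 genes other than Dnajb1 were thus positive in both blocks. With the block as a term in the fit of all 12 libraries, a setting added after seeing the data, Hspa8 and Hsp90ab1 again passed (limma adjusted p = 0.00834 and 0.00554), the other 4 did not, and 65 entries were called.

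**Figure D3:**
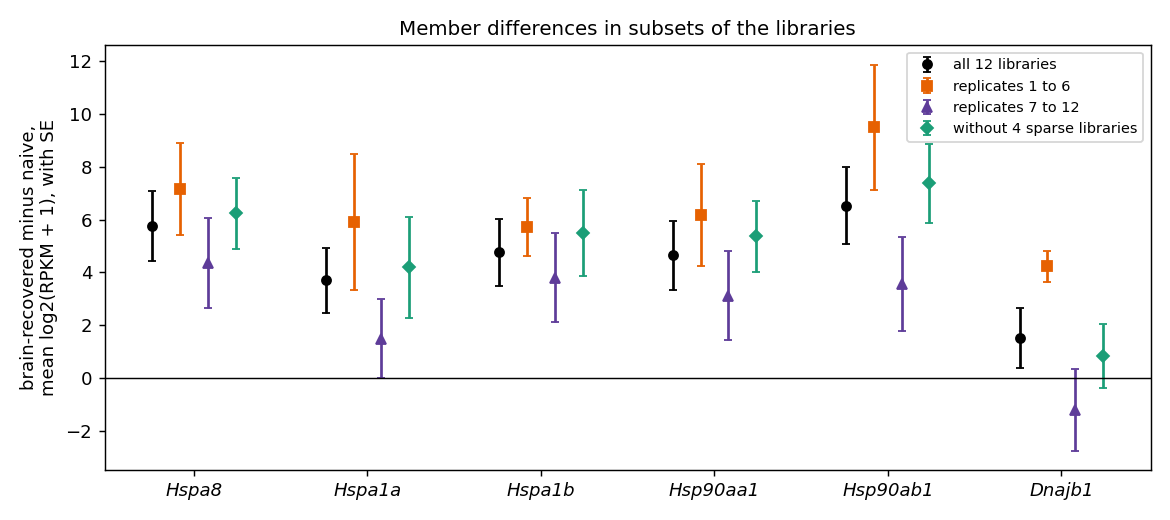
Difference of each gene in mean log2(RPKM + 1), brain-recovered minus naive, with its SE, in all 12 libraries, in replicates 1 to 6, in replicates 7 to 12, and without the 4 sparse libraries. Hsp90ab1 ranges from 3.56 to 9.50 and Dnajb1 from -1.20 to 4.23.

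Scaling to library totals and quantile normalization moved the whole distribution, whereas scaling to upper quartiles left its median at 0.67. With every library scaled to the same total of values, the median of all entries shifted to -0.33, and at an unadjusted p under 0.05 there were 184 higher and 440 lower entries, against 1075 higher and 31 lower as deposited. Under that scaling the difference was 4.36 for Hspa8, 4.62 for Hsp90ab1, 3.03 for Hsp90aa1, 2.99 for Hspa1b, 2.12 for Hspa1a and 0.54 for Dnajb1. Quantile normalization gave a median of -0.06, with 3.99 for Hspa8, 4.49 for Hsp90ab1, 3.36 for Hsp90aa1, 2.94 for Hspa1b, 1.37 for Hspa1a and 0.73 for Dnajb1. The differences kept their sign under both, and no entry passed limma's threshold under either. With each library scaled to the upper quartile of its values above 0, the difference was 5.78 for Hspa8 and 6.55 for Hsp90ab1. Both passed there (limma adjusted p = 0.0149 and 0.0109), among 53 entries called.

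Beyond the 6 genes, 76 further genes in 7 lists of chaperones, their partners and heat shock factors were examined. They are called other chaperone genes below, and 67 could be tested under a usable label. Of these, 2 were higher and none was lower by limma, with 9 higher and 1 lower at an unadjusted p under 0.05 and 5 at such a p in the exact permutation test. Over all entries tested, limma called 0.367% higher, and at an unadjusted p under 0.05 had 6.08% higher and 0.175% lower. Both higher genes encode chaperones of the endoplasmic reticulum and neither is cytosolic. In the 6 lists other than that of organelle paralogs none of 60 tested genes passed, and 6 were higher and 1 lower at an unadjusted p under 0.05. The median difference there was 0.98, against 0.64 over all entries tested. Of the genes named from these lists, Hsf5, Dnaja1, Dnajc2, Ptges3, Tomm34, Cct8 and Hsp90b1 had entries of exactly their exon length, and the labels of the others rest on the identifier.

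Hspa5 and Hsp90b1 are the endoplasmic reticulum counterparts of HSP70 and HSP90. Hspa5 ran from 8.55 to 1574 RPKM in brain-recovered libraries, with a median of 823, against 0 to 20.9 RPKM with a median of 10.6 in naive libraries (difference 6.01 ± 1.43 SE, limma adjusted p = 0.0125). Hsp90b1 ran from 4.12 to 925 RPKM with a median of 337 in brain-recovered libraries, against 0 to 13.6 RPKM with a median of 3.15 in naive libraries (5.95 ± 1.38 SE, limma adjusted p = 0.00839). In both, replicate 12 was again the lowest brain-recovered library. Neither passed without brain-recovered replicate 4 or 11 or without naive replicate 8, and of the 2 only Hsp90b1 passed without naive replicate 2, 3 or 9. The list of organelle paralogs, which also holds the mitochondrial chaperones, had 7 tested genes, all with positive differences and a median of 2.33.

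Heat shock factors, the transcription factors of the response, gave no call among 3 tested. The 2 largest differences were 2.03 ± 1.27 for Hsf5 and 1.30 ± 1.26 for Hsf2 (SE). Hsf2 was at 352 RPKM in brain-recovered replicate 6 and at most 38.4 in the others, against 0.273 to 27.3 RPKM in naive libraries. Hsf1 had -0.88 ± 1.24, with 0 to 49.9 RPKM in brain-recovered and 0 to 109 RPKM in naive libraries; it lies outside the rule by which genes were named and is given because it encodes the main activator of the inducible genes.

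In the list of further HSP70 and J-domain genes, none of 16 tested passed, and their median difference was 1.00. The largest were 2.43 ± 1.27 for Dnajc2, a J-domain protein of the ribosome, and 2.22 ± 1.35 for Dnaja1, another HSP40 partner of HSP70 (SE). Each had a single high library. Dnajc2 was at 1235 RPKM in brain-recovered replicate 10 and at most 17.2 in the other 5, against 0 to 17.5 RPKM in naive libraries. Dnaja1 was at 1888 RPKM in brain-recovered replicate 6 and at most 22.5 in the others, against 0.114 to 27.1 RPKM in naive libraries. Hspa1l, an HSP70 gene of the same cluster as Hspa1a and Hspa1b, was listed at 0 in all libraries. Values of 0 imply no length, so its label rests on the identifier alone.

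Exchange factors and other regulators of HSP70 gave no call among 7 tested, with a median of 0.71. Bag2, an inhibitor of the ubiquitin ligase that works with HSP70, had 0 to 48.2 RPKM in brain-recovered and 0 to 10.3 RPKM in naive libraries and differed by 2.82 ± 1.23 (SE, limma adjusted p = 0.648). Bag1, an exchange factor, was at 12270 RPKM in brain-recovered replicate 6 and 3801 RPKM in naive replicate 1 and at most 37.0 elsewhere, with a difference of 1.74 ± 1.33 (SE).

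HSP90 co-chaperones gave no call among 15 tested, with a median of 1.07. The largest were 3.07 ± 1.27 for Ptges3, which encodes p23, and 2.94 ± 1.22 for Tomm34, which links HSP70 and HSP90 (SE, limma adjusted p = 0.606 and 0.605). Ptges3 was at 502 and 1923 RPKM in brain-recovered replicates 6 and 10 and at most 9.83 in the other 4, against 0 to 15.7 RPKM in naive libraries. These are the replicates in which Hsp90ab1 was also highest, whereas Tomm34 was highest, at 68.9 RPKM, in replicate 12.

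Small heat shock proteins, which hold unfolded proteins without ATP, gave no call among 6 tested, with a median of 0.35. Cryab had 2264 RPKM in brain-recovered replicate 4 and 190 in replicate 5 and at most 11.8 in the other 4, against 0 to 13.9 RPKM in naive libraries (3.44 ± 1.27 SE, limma adjusted p = 0.445). Hspb2 had the most negative value named, -2.65 ± 1.17 (SE, limma adjusted p = 0.667), with 0 to 10.7 RPKM in brain-recovered and 0 to 162 RPKM in naive libraries. Of the TRiC chaperonin and prefoldin, which fold actin and tubulin, none of 13 passed, with a median of 1.14. The largest were 2.55 ± 1.31 for Cct3 and 2.51 ± 1.31 for Cct8 (SE). Cct3 was at 353 RPKM in brain-recovered replicate 5 and at most 37.8 in the others, against 0 to 29.4 RPKM in naive libraries. Cct8 was at 4968 RPKM in brain-recovered replicate 10 and at most 161 in the others, against 0 to 26.0 RPKM in naive libraries.

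**Figure D4:**
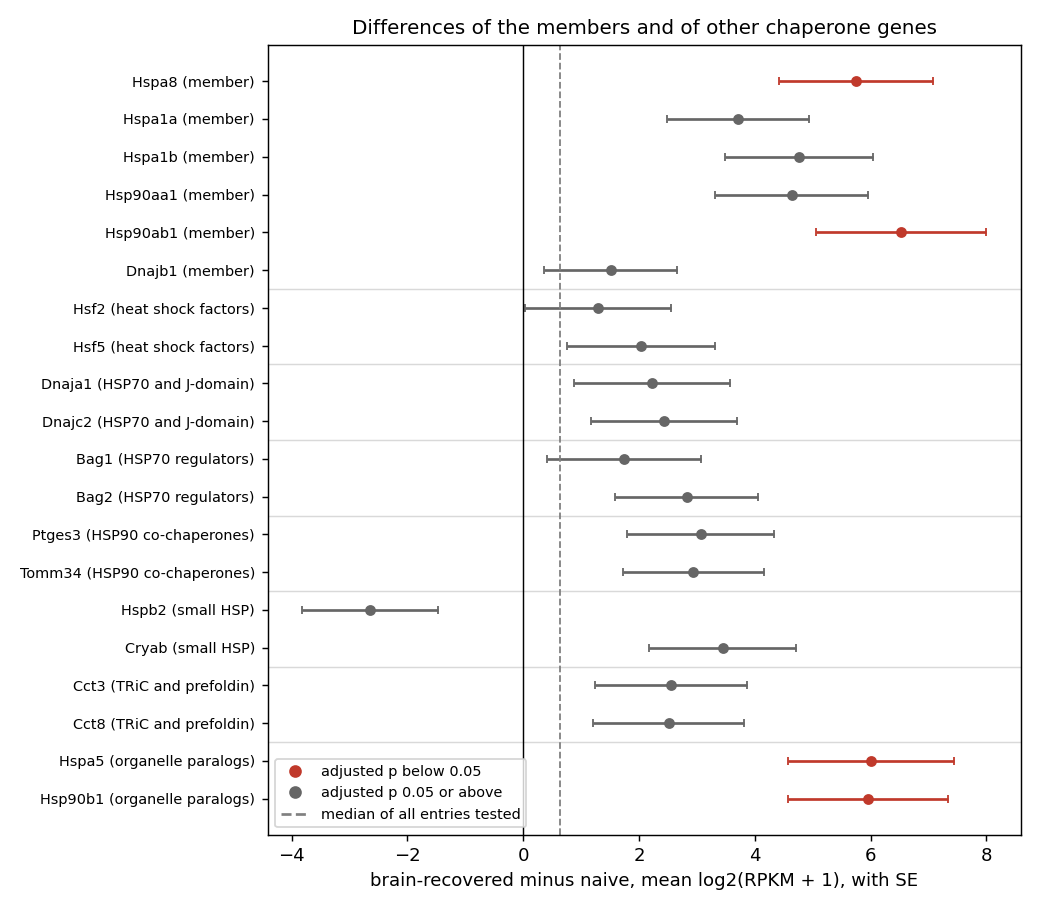
Difference in mean log2(RPKM + 1), brain-recovered minus naive, with its SE, for the 6 genes and for the named genes of the 7 other chaperone lists. Red points passed limma's adjusted threshold of 0.05, and the dashed line is the median of all entries tested, 0.64. Hspa8, Hsp90ab1, Hspa5 and Hsp90b1 are the red points, at 5.75 to 6.53.

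The profile of Hspa8 over the 12 libraries was set against those of 8248 entries whose length equalled that of the labelled gene. Likeness was the root mean square difference of log2(RPKM + 1) after each profile's mean was subtracted, which had a median of 3.70 over these entries. Among the 5 closest were Hsp90b1 (1.30), Srgn, the proteoglycan core of secretory granules (1.33), Gm12361 (1.94) and H3f3b, a histone H3.3 gene (1.98). Hspa5, whose entry is not of exact length and was therefore not ranked, lay between Srgn and Gm12361 on this measure when looked up afterwards. The other 5 of the 6 genes, compared whatever their length, had 2.12 for Hsp90aa1, 2.36 for Hspa1b, 2.49 for Hsp90ab1, 2.73 for Hspa1a and 3.16 for Dnajb1. All profiles share the libraries and their depths.

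Markers of the labelled cells and of other cell types were summed in each library. Of 10 haematopoietic progenitor markers with a usable label, 1 was higher by limma (Mpo), and their sum had a median of 1532 RPKM in brain-recovered libraries (48.5 to 42853) and of 96.1 RPKM in naive libraries (20.4 to 106). Such a sum mostly reflects its highest markers. The median difference of the tested progenitor markers was 0.60, against 0.64 over all entries tested. It was 3.11 for oligodendrocyte markers, 1.95 for astrocyte markers and 0.13 to 1.26 for the other types. Among the markers of the other cell types none passed. At an unadjusted p under 0.05, limma had 4 of 7 tested oligodendrocyte, 2 of 6 astrocyte and 1 of 8 endothelial markers higher, against 6.08% of all entries. In the exact permutation test 1 oligodendrocyte, 2 astrocyte and 0 endothelial markers had such a p, against 4.13% higher and 0.232% lower over all entries. None of the remaining types had such a marker, and no marker was lower. The sum was above every naive library in 5 brain-recovered libraries for astrocyte markers and in 4 for oligodendrocyte and progenitor markers. For the remaining types this held in 1 to 3. The median sum of oligodendrocyte markers (8 usable) was 3245 RPKM in brain-recovered libraries (50.2 to 29176) and 75.9 RPKM in naive libraries (16.6 to 86.8). Astrocyte markers (7, Gfap at 0 in all libraries) had medians of 607 RPKM in brain-recovered (5.25 to 3411) and 75.9 RPKM in naive libraries (25.0 to 110). Values of 0 imply no length, so the labels of markers given here as at 0 could not be checked. Mature neutrophil markers (7) had medians of 1945 RPKM in brain-recovered (0 to 17634) and 106 RPKM in naive libraries (75.9 to 13043). Neuron markers (5, Tubb3 at 0) had medians of 119 RPKM in brain-recovered (8.05 to 382) and 49.8 RPKM in naive libraries (0 to 122). The medians lay close together for microglia and macrophage markers (9, P2ry12 at 0), at 102 RPKM in brain-recovered (2.08 to 21258) and 100.3 RPKM in naive libraries (29.9 to 185). The same held for endothelial markers (8), at 90.9 RPKM in brain-recovered (1.90 to 14418) and 93.3 RPKM in naive libraries (50.8 to 156). Erythroid markers (7, Alas2 at 0) had 74.3 RPKM in brain-recovered (24.7 to 1409) and 54.4 RPKM in naive libraries (10.3 to 68.7). B and T cell markers (5, Ms4a1 at 0) had 54.4 RPKM in brain-recovered (0 to 200) and 40.9 RPKM in naive libraries (0 to 75.2). The part of these cells, of depth and of the sparse libraries in the differences of the chaperone genes was not tested.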

How the data were processed

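Libraries were prepared from lysed cells by amplifying cDNA with a low-input kit (SMARTer Ultra Low Input, v3), tagmented by Nextera XT and read on an Illumina HiSeq, per the labels' protocols. Trimmomatic 0.32 and the build GRCm38 are named in the submitters' processing notes, while the aligner, counter and annotation are not stated in the sources used here. The authors deposited 1 table of 38924 entries and 12 libraries with no unit in its header. The deposited values were treated as RPKM because they moved in steps of whole reads. Whole reads, divided by 1 length per entry and multiplied by 1 constant per library, were found for 24387 of 24388 entries above 0. The tolerance was 0.004 of a read plus a small share of the reads. Any unit of reads per length and library constant would give this, and entries with few values above 0 readily fit some length. No normalization was added.

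Identifiers were matched to GENCODE M21 (GRCm38; 37607 matched), which gave coordinates and exon lengths. A label was dropped within a run of at least 10 mismatched lengths, where the length was that of another gene within 40 places, or where it was over 2 times too long. Of the entries above 0, 10995 had the exact length, 10103 kept their label, 2776 lost it and 514 had no name; all stayed in the test. In 340 entries the symbol cell names another gene than the identifier.

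Tests used limma 3.58.1 in R 4.3.3 (eBayes with trend) on log2(RPKM + 1). The prior degrees of freedom were infinite, so each SE reflects the pooled spread of entries at similar levels, not that of the entry itself. The fit was tested on simulated data. Exact permutation tests used all 924 assignments of the libraries (smallest p 0.00216) and each entry's own values. Sequence and figure steps used Python 3.11.15, Biopython and matplotlib.

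The genes, lists and tests were chosen with earlier results of these data known. The rule for named genes took all 6 members, from each other chaperone list those past the threshold and the 2 with the largest differences, and the 5 exact-length entries most like Hspa8. Of these 5, 1 is not reported here. The alternatives were other pseudocounts, filters, scalings and variance models, subsets of libraries, and each library left out.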

Additional observations from a re-analysis of the deposited data

Results flagged for a closer look

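Among 12 groups of 6 values (6 genes in 2 groups), 3 held a value that stood apart from the rest of its group on the log2(RPKM + 1) scale. The gap was over 0.625 of the group's range on that scale, a cut-off that flags about 1 in 20 groups of normally distributed values. Hspa1a in brain-recovered replicate 6 was at 5168 RPKM with the next value at 14.8 (gap 0.677 of the range). In naive replicate 9, Hspa1a was at 6.47 RPKM with the next value at 0.333 (0.857), and Hspa1b was at 5.41 RPKM with the next at 0.539 (0.768). Naive replicate 9 had the most entries above 0 of the naive libraries, 23184.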

How the results depend on the processing

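As deposited, 2 of the 6 genes, 2 of the other chaperone genes and 65 of all entries passed in limma. All 3 counts were 0 with a pseudocount of 10, after quantile normalization, with libraries scaled to their totals, with an ordinary linear model and in replicates 7 to 12 alone. With libraries scaled to their upper quartiles they were 2, 2 and 53. Without the sparse libraries they were 0, 0 and 2, with robust eBayes 0, 0 and 7, and with a minimum of 10 in 6 libraries 0 (2 genes tested), 2 and 33. They rose to 4 genes and 115 entries without the trend. In replicates 1 to 6 alone they rose to 5 genes, 25 of 60 other chaperone genes tested and 6011 of 15890 entries. With entries of exact length only, they were 1 (3 genes tested, Hspa8 not among them), 1 and 23. Leaving out each replicate gave 1 to 5 of the 3 to 6 genes that could then be tested, 0 to 3 of the other chaperone genes and 36 to 226 entries. Of the 6 genes, 5 passed without brain-recovered replicate 12, and 1 without brain-recovered replicate 11 or naive replicate 8 or 9; 3 could be tested without brain-recovered replicate 4, 5, 6 or 10 or naive replicate 9 and 4 without brain-recovered replicate 11. The cause of these changes was not tested.

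Dnajb1 reversed in replicates 7 to 12 alone, at -1.20; the other 5 differences stayed positive in every alternative in which they could be tested. The exact permutation test gave 5 of 6 genes at an unadjusted p under 0.05 with a pseudocount of 0.1 and without each library in turn. It gave 4 without the sparse libraries, an alternative chosen after seeing the data. Adjusted over all entries, its p was 0.973 for each gene and no entry passed. No paired analysis was possible because the 2 groups share no replicate number; a term for numbers 1 to 6 against 7 to 12, added after seeing the data, left the counts at 2, 2 and 65. On the naive side 13 of the 36 values were listed at 0; the part of depth in these was not tested.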
